A study of Homo sapiens with 4 samples.

Results

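ZBTB20 is a gene on the minus strand of chromosome 3 that spans 832.78 kb (GRCh37, 114033347 to 114866127). This section describes the peaks listed on its strand by CLIP-seq of SAF-A, in pull-downs and inputs. CLIP-seq crosslinks a protein to the RNA it touches by ultraviolet light, precipitates the protein and sequences the attached RNA. Whether a listed peak is a contact of SAF-A was not tested. The members are the listed peaks on the minus strand of chromosome 3 whose midpoint lies in the gene. There were 126 and 160 in the 2 SAF-A pull-downs (replicates 1 and 2) and 5 and 17 in the 2 inputs, 308 of the 278959 peaks in all 4 lists. The same interval on the plus strand, with 17 and 17 peaks in the pull-downs, against 2 and 3 in the inputs, served as the local background.

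All 4 samples were HCT116 cells, an established human colorectal carcinoma line, with no genetic change or treatment named in the labels, crosslinked at 254 nm with 4000 J per square metre. Pull-downs were precipitated with an antibody against SAF-A. Inputs came from the same kind of lysate without precipitation, and RNA of both was taken from the gel region at and just above the size of SAF-A. The lists held 96061 and 111256 peaks in the pull-downs, against 29386 and 42256 in the inputs, and the read depth behind them is unknown. Nothing in the labels says that replicates were separate cultures, so any p-value covers the variation among these 4 samples alone, and that variation may be technical.

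SAF-A, also called hnRNP U, is an abundant nuclear protein that binds both RNA and DNA and is known for its association with unspliced and chromatin-bound RNA. ZBTB20 encodes a zinc-finger protein of the BTB/POZ family that represses transcription. In the mouse it is known for its roles in the developing hippocampus and in the silencing of alpha-fetoprotein in the liver after birth. The gene is known for its very long introns and for alternative first exons. RefSeq lists 18 transcripts for it, and 4 antisense lncRNA genes (ZBTB20-AS1, ZBTB20-AS3, ZBTB20-AS4 and ZBTB20-AS5), 2 miRNA genes (MIR568 and MIR4796) and the pseudogene YBX1P3 within its bounds. That table is on another build than the peaks, so no member was placed in an exon or intron, and no peak sequence was read.

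The gene was selected on its peak counts in these lists: earlier results had shown the region around it to be high in pull-downs relative to inputs. Its difference between pull-down and input, and every measure built on its minus-strand pull-down peaks, is therefore a description here, with no test. The members made up 13.1 (95% exact Poisson interval 10.9 to 15.6) and 14.4 (12.2 to 16.8) of every 10000 peaks in the pull-down lists, against 1.70 (0.552 to 3.97) and 4.02 (2.34 to 6.44) in the input lists. The group means were 13.7 ± 0.9 for pull-downs, against 2.86 ± 1.64 for inputs (SD, n = 2 each), a ratio of 4.80. In the full lists both pull-downs lay above both inputs, which the choice of the gene had fixed. The intervals cover counting error only. Without input replicate 2 the input value was 1.70, and without input replicate 1 it was 4.02. When all lists were cut by score to equal length, the members made up 2.38 and 3.40 of every 10000 pull-down peaks. The inputs then had 1.70 and 3.74, so the groups overlapped. In bulk samples, fewer cells holding a transcript and less of it per cell cannot be told apart, and the amount of ZBTB20 RNA in either kind of sample was not measured.

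To read these values against the rest of the genome, every chromosome was divided into windows of the length of ZBTB20, with the gene as 1 window, and each strand was counted separately. In a fit across windows with limma (Benjamini-Hochberg adjusted p under 0.05), 185 of 2789 tested windows were higher in the pull-downs (6.63% of those tested) and 466 were lower (16.7%). These counts are given as the background only. The log2 ratio of the ZBTB20 minus strand was 2.31, where the median window had -0.08. The median of the 6945 windows with any peak had 13 and 14 peaks in the pull-downs, against 3 and 5 in the inputs. By mean pull-down share the ZBTB20 minus strand ranked 7 of these, and by mean input share it ranked 632.

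**Figure D1:**
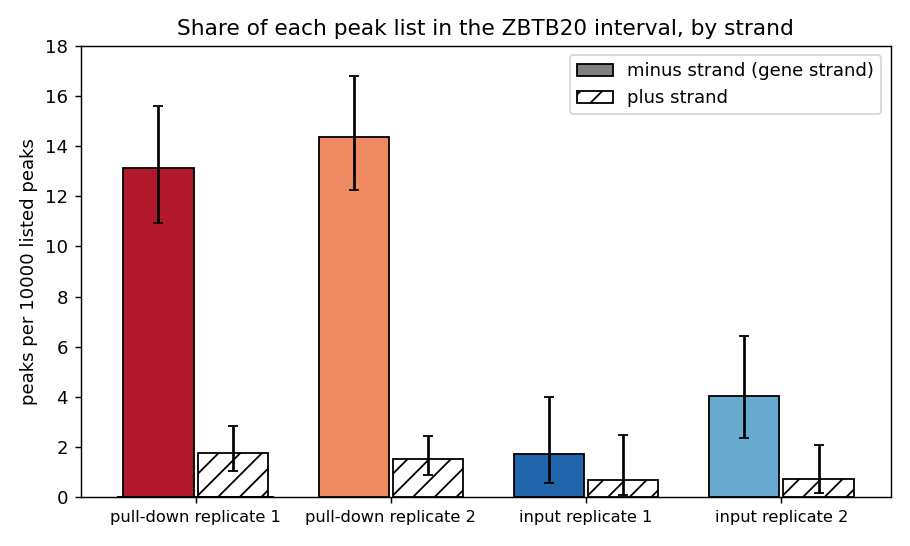
Peaks in the ZBTB20 interval per 10000 listed peaks (vertical axis) in each of the 4 libraries, for the minus strand (filled bars) and the plus strand (hatched bars), with 95% exact Poisson intervals. The minus strand stood at 13.1 and 14.4 in the pull-downs, against 1.70 and 4.02 in the inputs, and the plus strand at 1.77 and 1.53 in the pull-downs, against 0.681 and 0.710 in the inputs.

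The first question for a listed RNA peak is whether it lies on the strand that is transcribed. Members outnumbered the plus-strand peaks of the interval by 7.41 and 9.41 times in the pull-downs, against 2.50 and 5.67 times in the inputs. The minus strand held 88.1% (95% Wilson interval 81.8 to 92.4) and 90.4% (85.2 to 93.9) of the peaks of the interval in the pull-downs, against 71.4% (35.9 to 91.8) and 85.0% (64.0 to 94.8) in the inputs. Over the whole lists the minus share was 49.8% and 49.5% in the pull-downs, against 50.3% and 49.8% in the inputs. The annotated strand was the higher strand in both inputs, although these values rest on 7 and 20 peaks. It was also higher in both pull-downs, where the choice of the gene by its minus-strand peaks favoured that outcome.

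The log2 ratio of minus over plus was fitted in limma over all windows, each with its 2 strands. In the pull-downs it was 3.03 for ZBTB20, given as a description since the minus-strand pull-down peaks chose the gene. Of the 3181 windows tested, 432 (13.6%) were called in favour of either strand in the pull-downs, and the median size of the log2 ratio was 0.49. In lists cut to equal length the ratio of ZBTB20 in the pull-downs was 0.24.

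In the inputs, where the gene had been chosen for few peaks, its log2 ratio was 1.73 (SE 0.30, limma adjusted p = 0.0089). The fit gave both kinds of list 1 shared variance per window, so the SE was also 0.30 in the pull-downs. It does not measure the spread or counting error of the inputs alone, which listed 5 minus-strand peaks against 2 and 17 against 3. In input replicate 1 the 95% Wilson interval of the minus share, 35.9% to 91.8%, included equal strands. Of the windows, 1232 (38.7%) were called in the inputs and the median size was 0.70. The call was lost among narrow peaks, where the ratio was 0.42 (limma adjusted p = 0.30). It was also lost without either pull-down replicate (limma adjusted p = 0.16 for each), when no window passed the threshold for either kind of list.

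**Figure D2:**
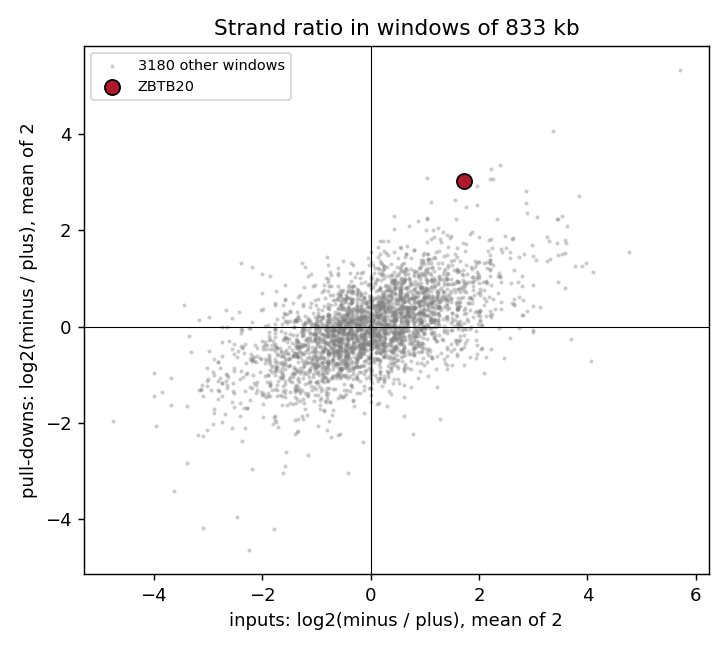
Log2 ratio of minus-strand over plus-strand peaks in windows of the length of ZBTB20, with the mean of the 2 inputs on the horizontal axis and the mean of the 2 pull-downs on the vertical axis (0.5 added to each count). ZBTB20 lies at 1.73 and 3.03, toward the upper edge of the 3181 windows.

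Members were wide more often than the peaks of their whole lists, and the plus strand of the interval held almost no wide peak. Peaks of at least 50 bases are called wide here, and the others narrow. Wide peaks numbered 73 and 78 on the minus strand of the interval in the pull-downs, against 3 and 13 in the inputs. On the plus strand there were 0 and 0 in the pull-downs, against 0 and 1 in the inputs. With a floor of 3 peaks set in place of each count of 0, the minus strand had 24.3 and 26 times as many wide peaks in the pull-downs. These values are not lower limits, since the counting error of the minus-strand counts is not included. Narrow peaks numbered 53 and 82 on the minus strand and 17 and 17 on the plus strand in the pull-downs.

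Wide peaks made up 57.9% (95% Wilson interval 49.2 to 66.2) and 48.8% (41.1 to 56.4) of the members in the pull-downs, whereas they made up 16.2% and 19.2% of the whole pull-down lists. In the inputs, 60.0% (23.1 to 88.2) and 76.5% (52.7 to 90.4) of the members were wide, against 22.1% and 26.6% of the whole input lists. Wide peaks were therefore a larger part of the members than of the list they came from in 4 of 4 libraries. The median width of the members was 56 and 48 bases in the pull-downs, against 53 and 80 bases in the inputs. That of the plus-strand peaks was 12 and 11 bases in the pull-downs, against 10.5 and 7 bases in the inputs, and that of the whole lists was 15 and 15 bases in the pull-downs, against 14 and 16 bases in the inputs.

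The strand ratio was also fitted in limma for each width class alone. Among wide peaks, 178 of 351 windows tested (50.7%) were called for either strand in the pull-downs. No ratio is given for ZBTB20 there, since its plus strand had no wide peak in either pull-down. Among narrow peaks, 146 of 3036 windows were called (4.81%), and the log2 ratio of ZBTB20 was 1.92, as a description. Its narrow peaks on the minus strand numbered 3.12 and 4.82 times those on the plus strand in the 2 pull-downs.

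A high share of wide peaks was not seen in ZBTB20 alone. Of the 46 windows on 1 strand with at least 100 peaks summed over the pull-downs, 11, ZBTB20 included, had a wide share of 52.8% or more, which was the value of ZBTB20, and the median of the 46 was 35.7%. By the summed number of wide pull-down peaks the ZBTB20 minus strand ranked 3 of all windows, with 151.

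**Figure D3:**
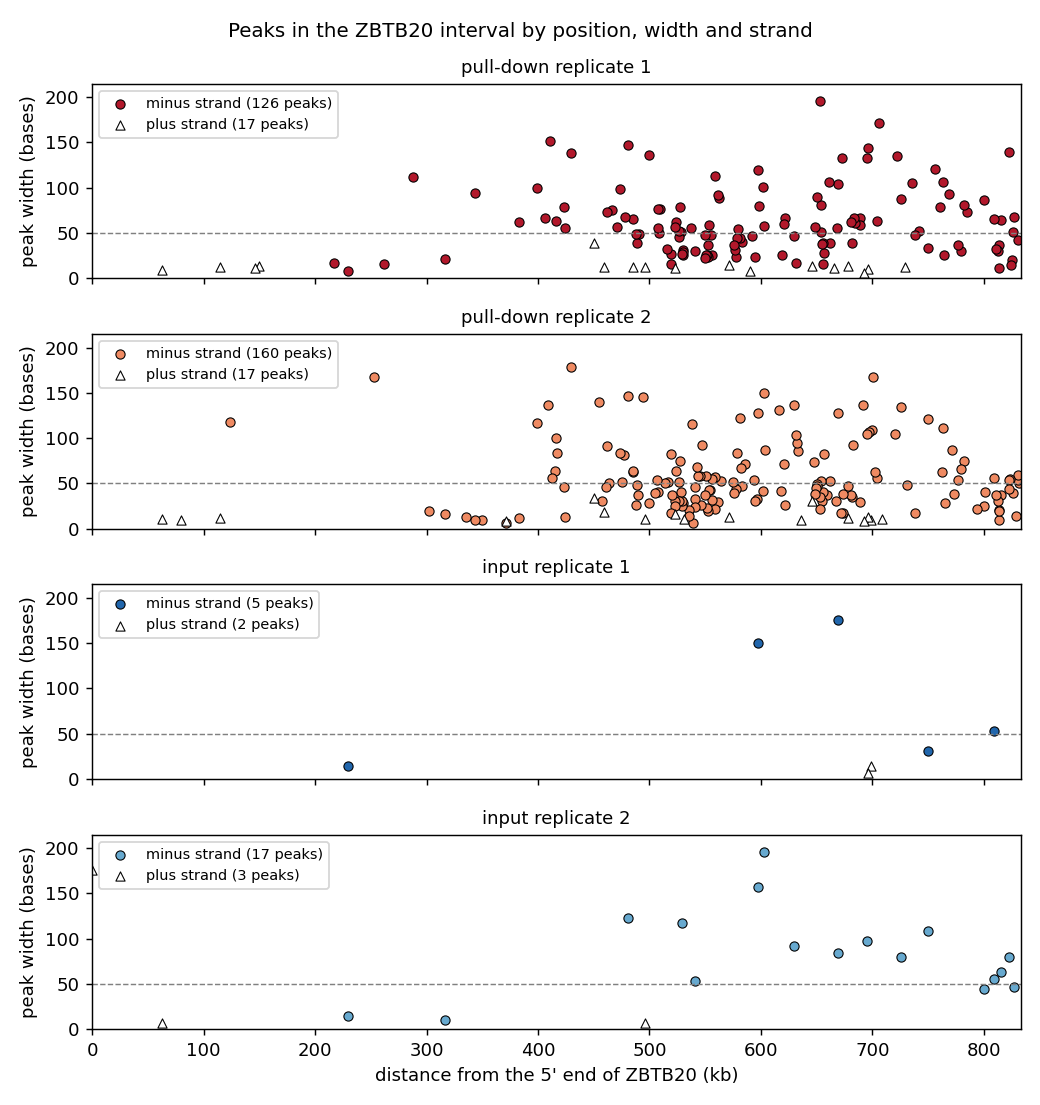
Each peak of the ZBTB20 interval by its distance from the 5′ end of the gene in kb (horizontal axis) and its width in bases (vertical axis), in 1 panel per library, with filled circles for the minus strand and open triangles for the plus strand. The dashed line marks 50 bases. Minus-strand peaks reach 196 and 178 bases in the pull-downs and gather more than 400 kb from the 5′ end, while all plus-strand peaks of the pull-downs are 39 bases or narrower.

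Members were not spread evenly along the gene. Counted in 100 kb steps from the 5′ end, pull-down replicate 1 had 0, 0, 4, 4, 17, 42, 29 and 17 members, and 13 in the last 32.8 kb. Pull-down replicate 2 had 0, 1, 1, 8, 24, 54, 38 and 17, and 17 in the last 32.8 kb. Both replicates were highest in the step from 500 to 600 kb (114266128 to 114366127), which held 33.3% (95% Wilson interval 25.7 to 41.9) and 33.8% (26.9 to 41.4) of their members in 12% of the length of the gene. Per length, the last 32.8 kb were close behind that step, with 91.5 members per 100 kb summed over both pull-downs, against 96 per 100 kb.

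The 5′ part of the gene was nearly empty. Its first 300 kb, 36% of the length, held 4 of 126 and 2 of 160 members in the pull-downs, or 3.17% (1.24 to 7.88) and 1.25% (0.343 to 4.44), and 1 of 5 and 1 of 17 in the inputs. The stretch from 400 to 700 kb, of the same length, held 69.8% (61.3 to 77.2) and 72.5% (65.1 to 78.8) of the members in the pull-downs, against 2 of 5 and 8 of 17 in the inputs. From 700 kb to the 3′ end lay 23.8% and 21.2% of the members in the pull-downs, and 2 of 5 and 7 of 17 in the inputs. These stretches were chosen after the counts had been seen and carry no test.

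The median distance of members from the 5′ end was 588 and 580 kb in the pull-downs, and it was 669 kb in each input. The input medians rest on 5 and 17 peaks. Wide and narrow members lay in the same stretch of the pull-downs, with medians of 603 and 584 kb for wide members and 577 and 569 kb for narrow ones. On the plus strand, 4 of 17 and 3 of 17 pull-down peaks lay in the first 300 kb and 12 of 17 in each replicate lay from 400 to 700 kb.

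**Figure D4:**
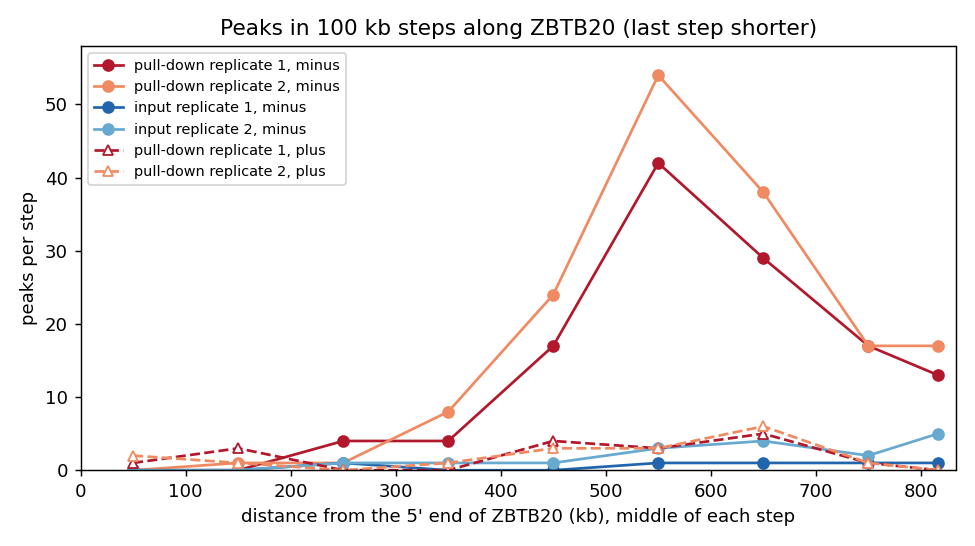
Number of peaks (vertical axis) in 100 kb steps along ZBTB20 from its 5′ end (horizontal axis), as filled circles for the minus strand of each library and open triangles for the plus strand of the pull-downs. The last step is 32.8 kb long. Both pull-downs rise after 400 kb to 42 and 54 peaks in the step from 500 to 600 kb.

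The ends of the gene were checked against the peaks around them. In the 100 kb beyond the 5′ end no library listed a peak on either strand, and the nearest member inside that end lay 217 and 124 kb from it in the pull-downs and 229 kb from it in each input. The nearest minus-strand peak beyond the 5′ end was 117 kb away in each pull-down and 597 kb away in each input. At the 3′ end members came close to the boundary, with the last of them 1.78 and 0.83 kb inside it in the pull-downs, against 23.6 and 5.76 kb inside it in the inputs. The first minus-strand peak past it lay 120 kb away in pull-down replicate 1, 3.63 kb away in pull-down replicate 2 and 120 kb away in each input. Members therefore ran up to the annotated 3′ end, and 2 further minus-strand peaks, both wide and both in pull-down replicate 2, lay within 50 kb past it. On the plus strand each pull-down listed 1 narrow peak in those 50 kb, and the inputs listed none. The minus-strand window of equal length past the 3′ end held 23 and 20 peaks in the pull-downs, against 6 and 11 in the inputs, and that before the 5′ end held 14 and 14 in the pull-downs, against 1 and 1 in the inputs.

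Peaks that shared 1 base or more on 1 strand were counted as found again. Of the members, 71 of 126 in pull-down replicate 1 (56.3%, 95% Wilson interval 47.6 to 64.7) were found in replicate 2, and 73 of 160 in replicate 2 (45.6%, 38.1 to 53.4) were found in replicate 1. For the whole lists these shares were 65.6% and 56.7%. By width, 39 of 73 wide members of replicate 1 (53.4%) recurred against 56.3% of all wide peaks of that list, and 33 of 78 of replicate 2 (42.3%) against 41.1%. Narrow members recurred in 32 of 53 cases (60.4%) against 67.4% of all narrow peaks of replicate 1, and in 40 of 82 cases (48.8%) against 60.4% of those of replicate 2. On the plus strand of the interval 11 of 17 peaks recurred in each direction. With an overlap of 50% of both peaks required, 38.1% and 30.0% of the members were found again.

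Merged over both pull-downs, the members formed 213 separate places, of which 71 were in both replicates, 55 in replicate 1 alone and 87 in replicate 2 alone. For the 71 shared sites the median merged width was 66 bases, and 53 of them (74.6%) were wide once merged. Merging joins overlapping peaks, so a site is at least as wide as its widest peak. By single peaks, 39 of the 71 recurring members of replicate 1 and 33 of the 73 of replicate 2 were wide. The shared sites covered 0.674% of the gene. The first lay 316 kb from the 5′ end and the last 831 kb, with 49 of the 71 between 400 and 700 kb. Neighbouring sites were a median of 4.01 kb apart, and 2.87 kb apart between 400 and 700 kb. The 11 shared sites of the plus strand were 8 to 39 bases wide, with a median of 14.

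The overlap of members with input peaks follows in part from the choice of a gene with few input peaks, and is given as a description. Of the pull-down members, 17 of 126 (13.5%, 95% Wilson interval 8.60 to 20.5) and 16 of 160 (10.0%, 6.25 to 15.6) overlapped a peak of either input, where 29.9% and 26.6% of the whole pull-down lists did. The inputs listed 5 and 17 members, which limits how many pull-down members could have a counterpart. Of the 71 shared sites, 56 (78.9%) were free of input peaks, 11 had a peak in 1 input and 4 in both. On the plus strand of the interval 8 of 11 shared sites (72.7%) were free of input peaks, and over the whole lists 35889 of 62968 (57.0%) were.

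In the other direction, all 5 and all 17 input members overlapped a peak of a pull-down. This is 100% of each, with lower 95% Wilson limits of 56.6% and 81.6%, against 71.0% and 67.7% of the whole input lists. The contrast was larger among wide peaks, where 3 of 3 and 13 of 13 input members were found in a pull-down, against 37.9% and 36.3% of all wide input peaks. The input peaks of the gene were at places that a pull-down also listed, in both input libraries. A gene chosen for many pull-down peaks offers more places to overlap. These contrasts with the whole lists therefore follow in part from the choice and are given as a description.

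The site with the best mean rank of the 4 in all libraries was 128 bases wide (114196668 to 114196795) and lay 669 kb from the 5′ end. Its scores were 75 and 73 in the pull-downs, against 12 and 23 in the inputs. The score is the authors' own value for each peak, a whole number of at least 10 whose meaning is not given in the sources used here, so it is read only as a rank within its list. The site ranked 7289 of 96061 and 8314 of 111256 in the pull-downs, against 22276 of 29386 and 13863.5 of 42256 in the inputs. It was the best-ranked member in each pull-down.

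The next of the 4 was 121 bases wide (114116356 to 114116476), with scores of 30 and 30 in the pull-downs, against 10 and 32 in the inputs. It was followed by a site of 128 bases (114268508 to 114268635), with scores of 26 and 33 in the pull-downs, against 10 and 14 in the inputs. The last was a site of 65 bases (114056917 to 114056981), with 18 and 11 in the pull-downs, against 11 and 15 in the inputs. All 4 were wide as merged sites, and they lay 598 to 809 kb from the 5′ end.

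The 5 input-free sites with the best mean rank were also wide as merged sites. The first was 99 bases wide (114392045 to 114392143), with scores of 30 and 26 in the pull-downs. The second, of 111 bases (114102936 to 114103046), had scores of 25 and 30, and the third, of 71 bases (114342138 to 114342208), had 27 and 26. The fourth, of 65 bases (114483071 to 114483135), had 21 and 24, and the fifth, of 196 bases (114213093 to 114213288), had 39 and 15. They were scattered from 383 to 763 kb from the 5′ end, and their mean ranks were 34076.5 to 45375.25.

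The 3 widest shared sites, merged from overlapping peaks, measured 275, 196 and 164 bases. The widest (114436488 to 114436762) joined peaks that scored 12 and 11 in the pull-downs, and no input listed it. The 196-base site is the fifth of the input-free sites above. The 164-base site (114384876 to 114385039) scored 28 and 34 in the pull-downs and 12 in input replicate 2.

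The best-ranked member of both inputs was of another kind. It was a narrow peak 229 kb from the 5′ end, 14 bases wide in input replicate 1 (114636825 to 114636838, score 40) and 15 in input replicate 2 (score 48), where it ranked 4927 and 5005. Pull-down replicate 1 listed 8 bases there with the lowest score, 10, and replicate 2 listed no peak there. It was chosen for naming after its values had been seen.

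Most members scored low. Their median score was 13 and 13 in the pull-downs, against 11 and 14 in the inputs, below the medians of the whole lists, which were 19 and 19 in the pull-downs, against 17 and 17 in the inputs. Scores of 10 to 14 were held by 66.7% and 62.5% of the members in the pull-downs, against 34.0% and 35.2% of the whole pull-down lists. Only 15.1% and 22.5% of the members in the pull-downs ranked in the better-scoring 50% of their list. Wide members had medians of 14 and 15 in the pull-downs, close to the 14 and 14 of all wide pull-down peaks. Narrow members had 12 and 12, where all narrow pull-down peaks had 20 and 20. The plus-strand peaks of the interval had medians of 22 and 28 in the pull-downs.

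Few members were left when the lists were cut by score. When each list was cut to its 29386 best-scoring peaks, the length of the shortest list, 7 and 10 members were left in the pull-downs, against 5 and 11 in the inputs. The members then made up 2.38 and 3.40 of every 10000 peaks in the pull-downs, against 1.70 and 3.74 in the inputs, and the groups overlapped. The plus strand kept 7 and 7 peaks in the pull-downs, against 2 and 2 in the inputs. The log2 strand ratio of ZBTB20 in the pull-downs was then 0.24. At the cut, the lowest score kept was 30 and 33 in the pull-downs, against 10 and 13 in the inputs. A cut to equal length removes more of a longer list. In the better-scoring 50% of each list, 20 and 34 members were left in the pull-downs against 1 and 6 in the inputs, with 10 and 11 plus-strand peaks in the pull-downs.

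**Figure D5:**
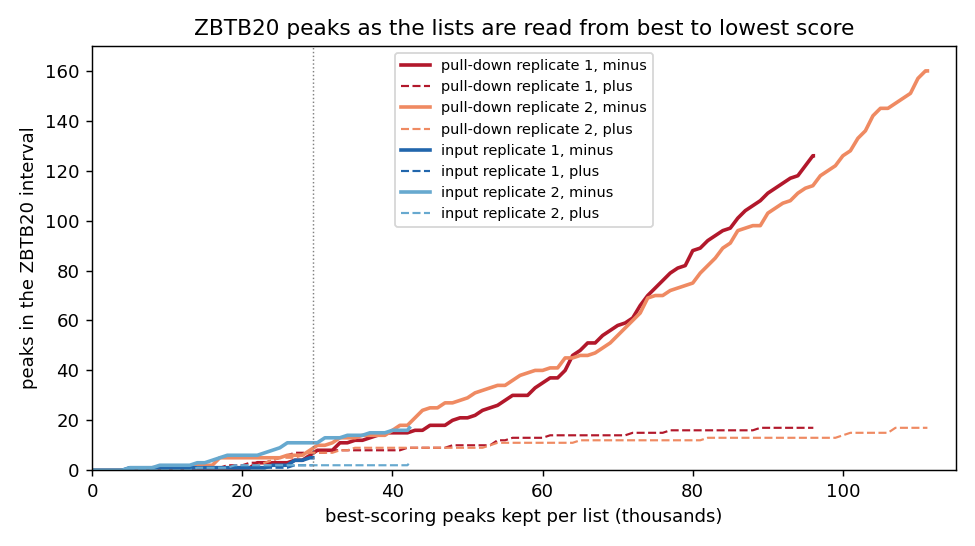
Number of peaks in the ZBTB20 interval (vertical axis) as each list is read from its best to its lowest score (horizontal axis, peaks kept, in units of 1000), with solid lines for the minus strand and dashed lines for the plus strand. The dotted line marks the 29386 peaks of the shortest list, where the pull-downs hold 7 and 10 members and the inputs 5 and 11, and the pull-down curves reach 126 and 160 at the end of their lists.

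With no gene positions on the build of the files, windows of equal length on 1 strand stand in for other genes. Only the ZBTB20 window was set to the bounds of a gene. The others were placed without regard to genes, so their ranks and wide shares are not those of whole genes. The 5 windows with the highest mean pull-down share lay on chromosome 11 minus (4939036 to 5771816), chromosome 2 plus (220629315 to 221462095), chromosome 10 plus (114033347 to 114866127), chromosome 12 plus (65732049 to 66564829) and chromosome 9 minus (20761875 to 21594655). They held 33.2, 32.8, 29.7, 18.4 and 15.9 of every 10000 pull-down peaks and 16.7, 7.39, 8.23, 6.29 and 7.20 of every 10000 input peaks. ZBTB20, with 13.7 in the pull-downs, against 2.86 in the inputs, had fewer peaks than these in both kinds of list. Its wide share of 52.8% in the summed pull-downs stood beside 11%, 28.7%, 28.9%, 13.6% and 11.2% in the 5 windows.

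The 3 windows nearest to the ZBTB20 minus strand over the 4 libraries, by Euclidean distance between log2 shares, lay on chromosome 7 minus (129856186 to 130688966), chromosome 12 minus (88217136 to 89049916) and chromosome 11 minus (121528376 to 122361156). Their distances were 0.83, 0.86 and 0.86. They held 9.99, 10.7 and 11.4 of every 10000 pull-down peaks, against 3.56, 3.85 and 4.08 of every 10000 input peaks. Their wide shares in the summed pull-downs were 20.3%, 14.3% and 38%, each below that of ZBTB20, which the measure of likeness did not use.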

How the data were processed

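SAF-A CLIP-seq peak lists of 2 pull-down and 2 input samples of HCT116 cells were used, grouped by their titles. The authors deposited 1 list per sample, not pooled, with positions in bases and a score per peak; neither the meaning of the score nor the peak caller is given in the sources used here. STAR, featureCounts and the build GRCh38 appear in the submitters' processing notes. However, 1214 of 278492 nuclear peaks end past a GRCh38 chromosome end and 0 past a GRCh37 one (lengths from general knowledge), so positions are taken as GRCh37, 1-based. Read depth and expression are unknown, so the cell line was not checked against markers.

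Windows of 832.78 kb were tested in limma 3.58.1 (R 4.3.3; lmFit, eBayes with a trend) on log2 of peaks per 10000 listed peaks, or of minus over plus peaks, with 0.5 added to each count and a mean count of at least 10. The fits were also run on simulated counts, where the strand fit was scored for the pull-downs only. The strand call in the inputs was not tested in that way. Overlaps, widths and positions were computed in Python 3.11.15 with pandas 2.3.3. Ties in score at a cut were broken at random. Sites and windows were named by rank rules: the 5 best-ranked input-free sites, the 3 widest, those in all 4 libraries, the 5 windows with the highest pull-down share and the 3 most like ZBTB20. The gene, the rules and the tests were chosen with earlier results of these data known. Alternatives changed the value added, the minimum, list length, peak width, assignment, overlap, step, grid, centring, the replicates used and the replicate block.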

Additional observations from a re-analysis of the deposited data

How the results depend on the processing

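Of 131 alternative values for 18 results, 0 reversed and 84 stayed on the same side of the threshold or within the spread. The number of windows tested changed with the setting and is given beside the counts. In lists of equal length, 12 of 277 windows tested were higher and 114 lower, against 185 and 466 of 2789. By strand, 241 and 305 of 1006 were called in the pull-downs and inputs, against 432 and 1232 of 3181. There the strand ratio of ZBTB20 in the pull-downs was 0.24 and the members per 10000 pull-down peaks 2.89. Sites in both pull-downs numbered 4, with 0 free of input peaks, and the median distance was 659 kb, the median width 107.75 bases and the wide share 82.9%. ZBTB20 fell under the minimum there, so its pull-down over input ratio has no value. In the better-scoring 50% there were 15 sites, 11 of them input-free. There 75% of the members of pull-down replicate 1 were found again, against 56.3% in the full lists. For pull-down replicate 2 it was 44.1%, against 45.6%. With an overlap of 50% of both peaks the shares found again were 38.1% and 30.0%. Minimum mean counts of 5 and 20 gave 354 of 6000 and 64 of 376 windows tested as higher. The minimum of 20 gave 166 of 376 as lower, and 579 of 1345 were called by strand in the inputs. Among narrow peaks, 45 of 1742 windows were higher and 197 lower, and 146 of 3036 were called by strand in the pull-downs. The narrow members made up 7.86 of every 10000 pull-down and 1.08 of every 10000 input peaks. Their strand ratio in the inputs was 0.42 (limma adjusted p = 0.30). Among wide peaks, 52 of 193 windows were higher and 70 lower, and 178 and 184 of 351 were called by strand in the pull-downs and inputs. The wide members made up 41.6 of every 10000 pull-down and 8.10 of every 10000 input peaks. Other causes were not tested; cut lists hold fewer peaks by construction.

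Leaving out each replicate in turn gave 43 to 677 higher and 269 to 703 lower windows. By strand it gave 0 to 515 windows for pull-downs and 0 to 1069 for inputs, with 0 whenever a pull-down was left out. The strand ratio of ZBTB20 then ranged from 2.85 to 3.20 for pull-downs and from 1.14 to 2.32 for inputs. A lone sample was assumed to vary like the other group. The log2 pull-down over input ratio of ZBTB20 ranged from 1.73 to 2.88. Replicate numbers are shared by the groups but nothing says they pair the samples; deviations of same-numbered samples correlated at 0.12 over 2789 windows. With the replicate block, ZBTB20 had strand ratios of 3.03 for pull-downs and 1.73 for inputs (limma adjusted p = 0.00080 for inputs). That fit also shared 1 variance between pull-downs and inputs. In it, 253 of 2789 windows tested were higher and 582 lower. By strand, 1350 of 3181 windows were called in the inputs, so a call there was common. The 2 input lists hold only 22 members, which limits every input share.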
